A study of Homo sapiens with 12 samples.

Results

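The 4 FOXO transcription factors, the MYC family members MYC, MYCN and MYCL, their dimer partner MAX, the MAX-binding repressor MXD1 and the ubiquitin ligase subunit FBXW7 were followed through 12 RNA sequencing libraries of ovarian cancer cells. The genes were found by exact gene symbol, which gave 10 of the 46350 named genes. SKOV3 is described by the labels as cisplatin-sensitive and SKOV3/DDP as cisplatin-resistant, both as human lines of epithelial ovarian cancer. Each line was sequenced untreated and after paeonol (PAE), a phenol of peony root, with 3 libraries in each of the 4 groups, named here SKOV3, SKOV3_PAE, SKOV3/DDP and SKOV3/DDP_PAE. The labels give neither dose nor time of PAE and do not say whether the libraries of a group came from separate cultures, so the p-values measure the spread between these libraries, which may be technical. The resistant line is a single line, and differences from SKOV3 cannot be told apart from any other difference between these lines.

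FOXO proteins are forkhead transcription factors that AKT and related kinases hold in the cytoplasm. When they are free in the nucleus they switch on genes for cell cycle arrest, cell death, antioxidant defence and fasting metabolism. MYC proteins bind E-box DNA as dimers with MAX and drive ribosome production, nucleotide synthesis and growth, whereas MXD1 and its relatives take MAX for themselves and repress many of the same genes. FBXW7 is the substrate-binding subunit of an SCF ubiquitin ligase that marks phosphorylated MYC, cyclin E and other growth proteins for destruction. The study asks how these factors connect the kinase NEK6 to purine synthesis in resistant cells. RNA levels do not show where a FOXO protein lies in the cell or how long a MYC protein lasts.

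Total counts ranged from 14610008 to 18263479 per library, so that 3 counts were worth 0.164 to 0.205 CPM, the counts of a gene per 1e+06 counts of its library. Levels below are TMM-normalized CPM, given in the order of replicates 1, 2 and 3, and tests are 2-sided edgeR quasi-likelihood tests adjusted over all genes tested. The 3 untreated SKOV3 libraries stood apart from the other 9: across 15682 genes, which are not independent, their deviation from each gene's mean rose with GC content (Spearman correlations of 0.688 to 0.693), and it fell in the others (-0.548 to -0.335). The mean is taken over the same 12 libraries, so the fall in the others is not a separate observation. Each comparison that holds untreated SKOV3 therefore carries the GC trend. Since all 3 libraries of that group have it, the trend and the group cannot be told apart by any fit. Most values of the 10 genes are given without and with removal of the trend, fitted to every library as smooth curves on GC content and on gene length. SKOV3/DDP replicate 2 differed from the other libraries of its group more than those differed from each other (chi-square per degree of freedom of 92.6 and 101, against 16.6). The same held for SKOV3/DDP_PAE replicate 3 (69.1 and 88.2, against 22.0) and SKOV3 replicate 2 (60.4 and 39.5, against 20.7). Mitochondrial genes held 1.29% to 1.96% of counts in SKOV3, 1.82% to 2.44% in SKOV3_PAE, 8.66% to 11.2% in SKOV3/DDP and 3.93% to 8.67% in SKOV3/DDP_PAE, and 17951 to 18240 genes had a count in SKOV3 libraries against 21469 to 23194 in the others. The part of these differences in the results was not tested. Scaling by library size alone would move the median log2 fold change over the tested genes from 0.41 to 1.16 between the untreated lines, from 0.48 to 1.36 for PAE in SKOV3, by 0.16 for PAE in SKOV3/DDP and by -0.68 for the difference of the PAE effects. It would raise the share of higher genes among those called from 56.5% to 70.3% for PAE in SKOV3 and from 44.5% to 60.2% for PAE in SKOV3/DDP, and lower it from 40.6% to 28.3% for the difference. All 9 epithelial markers had counts in every group, summing to 2730 to 12600 CPM per library, while the 7 fibroblast markers summed to at most 36.8 CPM, the 6 leukocyte markers to at most 118 CPM and the 5 endothelial markers to at most 13.3 CPM. Single epithelial markers went opposite ways between the untreated lines, with 5 called higher and 4 lower in SKOV3/DDP, beside 46.1% and 38.5% of all genes. With the trend removed 5 were higher and 3 lower, beside 35.6% and 32.1%. KRT7 averaged 3607 CPM in SKOV3 and 1.22 CPM in SKOV3/DDP, KRT19 averaged 7.66 and 1349 CPM, and EPCAM 1.27 and 288.6 CPM. With PAE in SKOV3/DDP 5 of the 9 fell and 0 rose, beside 14.7% and 11.8% of all genes. The part of these shifts in the results was not tested.

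FOXO1, which responds to insulin signalling in many tissues, was almost absent from SKOV3 and plentiful in SKOV3/DDP. Its levels were 2.13, 0.511 and 1.02 CPM in SKOV3 and 77.7, 49.7 and 69.6 CPM in SKOV3/DDP, and the groups did not come near each other. Between the untreated lines the log2 fold change was 5.69 ± 0.46 (SE, n = 3 and 3), 51.7-fold higher in SKOV3/DDP at an adjusted p of 7.01e-06. The 1069 tested genes within 1 percentage point of its GC content of 47.3% had a median log2 fold change of 1.43, and with the trend removed FOXO1 remained higher by 4.08 ± 0.33 (16.9-fold, adjusted p = 1.26e-05). With PAE in both lines, where both fits gave nearly equal values (2.55 and 2.45), FOXO1 had 10.8, 6.75 and 4.79 CPM in SKOV3_PAE and 34.4, 34.7 and 61.9 CPM in SKOV3/DDP_PAE. Here too every SKOV3/DDP library lay above every SKOV3 library, by a log2 fold change of 2.55 ± 0.39 (5.87-fold, adjusted p = 6e-05). PAE raised FOXO1 in SKOV3 by 2.61 ± 0.45 (6.10-fold, adjusted p = 8.1e-05), which fell to 0.96 ± 0.37 (adjusted p = 0.0451) once the trend was removed. That smaller value lost its call when SKOV3 replicate 2 (0.75), SKOV3 replicate 3 (0.85), SKOV3_PAE replicate 1 (0.62) or SKOV3_PAE replicate 2 (1.03) was left out. In SKOV3/DDP the change with PAE was -0.59 ± 0.36 and did not pass the test (adjusted p = 0.25), and neither did -0.64 ± 0.28 (adjusted p = 0.103) with the trend removed. The PAE effect on FOXO1 differed between the lines by -3.20 ± 0.58 (adjusted p = 0.000193), and by -1.60 ± 0.47 (adjusted p = 0.0144) with the trend removed.

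FOXO3, the family member the study places downstream of NEK6, rose with PAE in both lines. It had 9.31, 3.84 and 10.8 CPM in SKOV3 and 60.5, 44.5 and 40.2 CPM in SKOV3_PAE, with no overlap. The log2 fold change was 2.60 ± 0.32 (6.07-fold, adjusted p = 2.35e-06), where the 1131 genes near its GC content of 49.4% had a median of 0.73, and it was 1.51 ± 0.23 (2.85-fold, adjusted p = 0.000161) with the trend removed. In SKOV3/DDP the levels were 33.9, 36.9 and 34.1 CPM untreated and 63.4, 58.4 and 83.3 CPM with PAE, again without overlap. Its log2 fold change of 0.97 ± 0.30 (1.96-fold, adjusted p = 0.026) became 0.96 ± 0.22 (adjusted p = 0.00511) with the trend removed. Without that removal it lost its call when SKOV3/DDP replicate 1 (0.98, adjusted p = 0.0692), SKOV3/DDP replicate 3 (0.98, adjusted p = 0.0698) or SKOV3/DDP_PAE replicate 3 (0.84, adjusted p = 0.0743) was left out, and with it no omission ended the call. The effect was smaller in SKOV3/DDP than in SKOV3 by 1.63 on the log2 scale (-1.63 ± 0.42, adjusted p = 0.00345), but the difference was -0.56 ± 0.32 (adjusted p = 0.181) with the trend removed, which passed without SKOV3 replicate 3 (-0.83, adjusted p = 0.0492). It also passed when the trend on GC content alone was removed. Without PAE, FOXO3 was higher in the resistant line, by 2.08 ± 0.35 (adjusted p = 0.000578) and by 0.94 ± 0.27 (adjusted p = 0.0128) with the trend removed, or 0.61 without SKOV3 replicate 2. Between the lines under PAE the difference of 0.50 ± 0.29 did not pass (adjusted p = 0.166), nor did 0.38 ± 0.22 (adjusted p = 0.146) with the trend removed. FOXO3B, a near-identical copy of FOXO3 that could have taken some of its reads, had 172, 599, 203 and 533 counts in SKOV3, SKOV3_PAE, SKOV3/DDP and SKOV3/DDP_PAE, against 277, 2683, 1729 and 4050 for FOXO3, so the split of reads between them is uncertain.

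FOXO4, encoded on the X chromosome, moved the other way in SKOV3, in the same direction as the median of genes near its GC content of 57.1%. The levels were 43.6, 50.6 and 43.2 CPM in SKOV3 against 16.1, 12.4 and 5.89 CPM in SKOV3_PAE and 14.2, 13.3 and 12.98 CPM in SKOV3/DDP. Untreated SKOV3 stood above both of these groups. With PAE in SKOV3 its log2 fold change was -1.995 ± 0.33 (adjusted p = 4.66e-05), near the median of -1.54 of the 1057 genes of like GC content, and it was -0.52 ± 0.30 (adjusted p = 0.166) with the trend removed, passing without SKOV3_PAE replicate 1 (-0.93, adjusted p = 0.0195). For the untreated lines it went from -1.82 ± 0.19 (adjusted p = 2.98e-05) to -0.39 ± 0.17 (adjusted p = 0.0746), passing without SKOV3 replicate 1 (-0.58, adjusted p = 0.0263). With PAE in SKOV3/DDP (10.8, 7.38 and 13.97 CPM) the change was -0.33 ± 0.32 (adjusted p = 0.47).

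FOXO6, known mostly from brain, was the scarcest FOXO factor in SKOV3/DDP and in both PAE-treated groups on a scale of CPM per kilobase. It had 59, 33 and 63 counts in SKOV3, 14, 33 and 9 in SKOV3_PAE, 13, 10 and 14 in SKOV3/DDP and 33, 11 and 8 in SKOV3/DDP_PAE. In CPM the SKOV3 libraries (2.81 to 5.34) lay above all others (0.440 to 1.68), although all of these counts are low. The log2 fold change between the untreated lines was -2.62 ± 0.39 (adjusted p = 0.000256), and FOXO6 was itself the median of the only 19 tested genes within 1 percentage point of its GC content of 71.9%. After removal of the trend it was -0.93 ± 0.34 (adjusted p = 0.0385), and that call was lost without SKOV3 replicate 3 (-0.94), SKOV3/DDP replicate 1 (-0.74), replicate 2 (-0.69) or replicate 3 (-0.86), and also when the trend on GC content alone was removed (-0.17, adjusted p = 0.697). For PAE in SKOV3 it was -2.16 ± 0.56 (adjusted p = 0.00257) without and -0.15 ± 0.44 (adjusted p = 0.812) with removal of the trend.

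**Figure D1:**
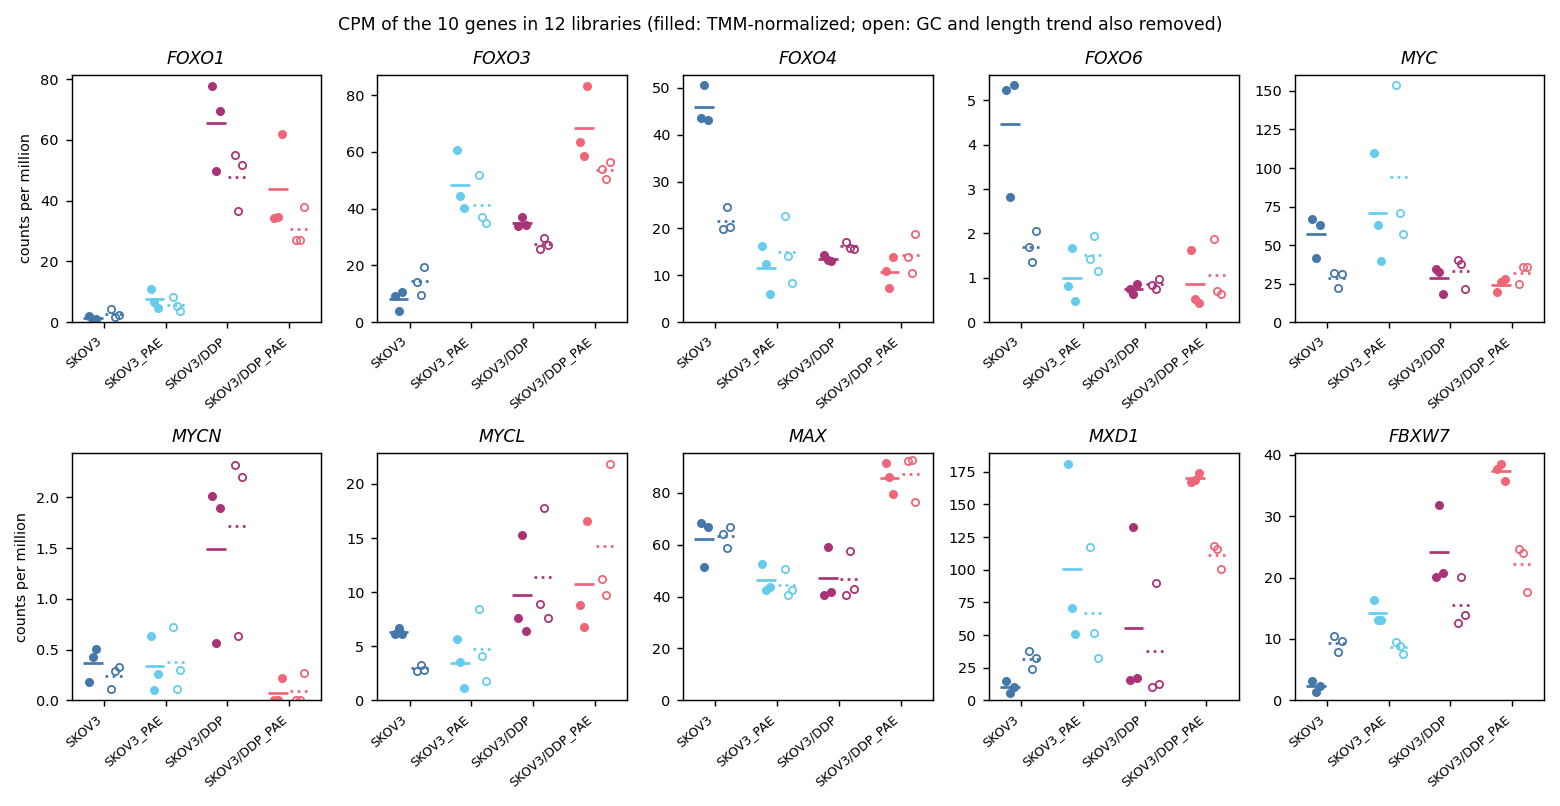
Levels in CPM (vertical axis, from 0) of the 10 genes in the 12 libraries; each point is a library, filled for TMM-normalized CPM and open for CPM with the GC and length trend also removed, and each line is the mean of 3 libraries (solid and dotted). FOXO1 separates SKOV3 from SKOV3/DDP on both scales, whereas the low levels of FBXW7 and MXD1 in untreated SKOV3 and the high ones of FOXO4 and FOXO6 move towards the other groups when the trend is removed.

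MYC itself was lower in SKOV3/DDP than in SKOV3 when both had received PAE, and did not change measurably with PAE in SKOV3/DDP. The gene lies on chromosome 8, from 127735434 to 127742951 on GRCh38. Its levels were 109.9, 62.8 and 39.9 CPM in SKOV3_PAE and 19.4, 25.7 and 28.0 CPM in SKOV3/DDP_PAE. The groups did not overlap, although SKOV3_PAE was spread widely. The log2 fold change was -1.54 ± 0.35 (2.91-fold lower, adjusted p = 0.00154), and it was -1.55 ± 0.34 (adjusted p = 0.00143) with the trend removed. In SKOV3/DDP without PAE the levels were 34.7, 32.7 and 18.4 CPM, and the change with PAE was -0.23 ± 0.34 (adjusted p = 0.657), or -0.06 ± 0.34 (adjusted p = 0.934) with the trend removed.

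In the comparisons with untreated SKOV3 (66.9, 41.8 and 63.1 CPM), the direction of MYC depended on the allowance for GC content. Its transcripts have a GC content of 57.0%. MYC was lower in SKOV3/DDP by -1.06 ± 0.29 on the log2 scale (adjusted p = 0.00814), a smaller drop than the median of -1.56 of 1013 genes of like GC content. The value was 0.25 ± 0.27 (adjusted p = 0.418) with the trend removed, which passed as higher without SKOV3/DDP replicate 3 (0.64, adjusted p = 0.0444), and it was -0.32 (adjusted p = 0.323) with counts scaled by library size alone. PAE in SKOV3 gave 0.31 ± 0.34 (adjusted p = 0.421) without the allowance and 1.72 ± 0.34 (3.29-fold higher, adjusted p = 0.00117) with it, where the 1067 genes of like GC content had medians of -1.54 and 0.10. With counts scaled by library size alone it was 1.18 (adjusted p = 0.00418). On the adjusted scale the MYC levels were 32.0, 22.0 and 31.5 CPM in SKOV3 and 153.9, 70.8 and 56.9 CPM in SKOV3_PAE, which do not overlap. The PAE effect on MYC differed between the lines by -0.54 ± 0.48 (adjusted p = 0.347), and by -1.77 ± 0.48 (adjusted p = 0.00975) with the trend removed or -1.23 (adjusted p = 0.0289) with scaling by library size alone.

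MYCN, the form best known from neuroblastoma, had few counts in all groups and was close to the limit of detection in all but SKOV3/DDP. It had 2, 5 and 6 counts in SKOV3, 11, 2 and 5 in SKOV3_PAE, 35, 9 and 31 in SKOV3/DDP and 0, 0 and 4 in SKOV3/DDP_PAE. Each SKOV3/DDP library held more than any SKOV3/DDP_PAE library. The 4 counts with PAE against 75 without it correspond to a ratio of 0.0499 per library total (exact 95% interval for counting error 0.0132 to 0.133). The fitted log2 fold change was -4.31 ± 0.98 (adjusted p = 0.00559), and -4.27 ± 0.99 (adjusted p = 0.0054) with the trend removed. These fitted values depend on how 0 counts are handled: without SKOV3/DDP_PAE replicate 3, the only library of its group with MYCN counts, the first was -7.61. Without that library the comparison of the lines under PAE passed at -5.49 (adjusted p = 0.0125), while with it the value was -2.15 ± 1.07 (adjusted p = 0.102), -2.06 ± 1.10 (adjusted p = 0.122) with the trend removed, or -2.46 (adjusted p = 0.0421) by limma-voom. The difference of the PAE effect between the lines was -4.14 ± 1.36 (adjusted p = 0.0149), and it did not pass without SKOV3_PAE replicate 1 (-3.28, adjusted p = 0.0695) and was -7.44 without SKOV3/DDP_PAE replicate 3. The filter on low counts removed MYCN from the comparison of untreated lines. In the fit of all 12 libraries it passed that filter mostly through SKOV3/DDP libraries, where it was highest. Its calls for a fall from that group are therefore not independent of the filter.

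MYCL, first found in lung cancer, was higher in SKOV3/DDP than in SKOV3 under PAE. Its levels were 5.69, 3.55 and 1.16 CPM in SKOV3_PAE and 8.78, 6.81 and 16.6 CPM in SKOV3/DDP_PAE, so that the lowest library of the resistant line lay above the highest of the sensitive line. This log2 fold change was 1.63 ± 0.50 (3.10-fold, adjusted p = 0.0123), but it was 1.17 (adjusted p = 0.0702) without SKOV3/DDP_PAE replicate 3. Removal of the trend gave 1.59 ± 0.50 (adjusted p = 0.0135), and did not pass without SKOV3_PAE replicate 2 (1.46), SKOV3_PAE replicate 3 (1.16) or SKOV3/DDP_PAE replicate 3 (1.20). Without PAE, MYCL had 6.12, 6.73 and 6.10 CPM in SKOV3 and 7.61, 15.3 and 6.43 CPM in SKOV3/DDP, and went from 0.57 ± 0.36 (adjusted p = 0.171) to 1.98 ± 0.36 (3.94-fold, adjusted p = 0.00135) with the trend removed, or 1.29 (adjusted p = 0.00559) with scaling by library size alone. PAE changed it in neither line by the test (-0.87 ± 0.50 in SKOV3, adjusted p = 0.128, and 0.14 ± 0.48 in SKOV3/DDP, adjusted p = 0.882), apart from SKOV3 without SKOV3_PAE replicate 1 (-1.41, adjusted p = 0.0293) and by DESeq2 (-1.13, adjusted p = 0.0288). The value in SKOV3 was of the opposite sign with the trend removed (0.68 ± 0.50, adjusted p = 0.285).

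MAX, the shared partner of MYC and MXD proteins, rose with PAE in SKOV3/DDP. It had 40.8, 59.3 and 41.9 CPM untreated and 91.5, 85.9 and 79.4 CPM with PAE. The lowest treated library exceeded the highest untreated one. Its log2 fold change was 0.86 ± 0.21 (1.81-fold, adjusted p = 0.00828), and 0.89 ± 0.17 (adjusted p = 0.00169) with the trend removed. In SKOV3 the levels were 68.3, 51.2 and 66.6 CPM untreated and 52.6, 42.7 and 43.5 CPM with PAE, which overlap. There the change was -0.42 ± 0.21 (adjusted p = 0.0763), passing without SKOV3 replicate 2 (-0.54, adjusted p = 0.0331) or by DESeq2 (-0.67, adjusted p = 0.00175). With the trend removed MAX fell by 0.51 on the log2 scale (-0.51 ± 0.17, adjusted p = 0.0252), which did not pass without SKOV3 replicate 3 (-0.50), SKOV3_PAE replicate 2 (-0.44) or SKOV3_PAE replicate 3 (-0.47). The PAE effect on MAX was higher in SKOV3/DDP than in SKOV3 by 1.28 ± 0.29 (adjusted p = 0.0014), and by 1.40 ± 0.24 (adjusted p = 0.000489) with the trend removed; scaling by library size alone gave 0.59 (adjusted p = 0.0871). Under PAE, MAX was 1.85-fold higher in SKOV3/DDP than in SKOV3 (log2 fold change of 0.89 ± 0.21, adjusted p = 0.00217). In the untreated lines the value was -0.45 ± 0.22 (adjusted p = 0.0806), which passed without SKOV3 replicate 2 (-0.58, adjusted p = 0.0355) or SKOV3/DDP replicate 2 (-0.63, adjusted p = 0.0146), and by DESeq2 (-0.66, adjusted p = 0.00504). With the trend removed it was -0.38 ± 0.18 (adjusted p = 0.101), passing without SKOV3 replicate 2 (-0.56, adjusted p = 0.0389).

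MXD1, which replaces MYC on MAX as cells stop dividing and differentiate, had a library that decided its result in SKOV3/DDP. The levels were 15.5, 132.6 and 17.4 CPM in SKOV3/DDP and 167.1, 168.9 and 174.1 CPM in SKOV3/DDP_PAE. All treated libraries lay above all untreated ones, and SKOV3/DDP replicate 2 lay far above the other libraries of its group. With all libraries the log2 fold change was 1.62 ± 0.67 (3.08-fold, adjusted p = 0.0879), and 1.57 ± 0.65 (adjusted p = 0.0809) with the trend removed. The first of these passed by limma-voom (2.38, adjusted p = 0.0105), with scaling by library size alone (1.87, adjusted p = 0.0372) and with no filter on low counts (1.66 ± 0.26, adjusted p = 2.74e-08). In the last fit the fold change hardly moved and only its standard error fell, while the counts of MXD1 were the same. Its p-value therefore does not reflect the spread from 15.5 to 132.6 CPM in SKOV3/DDP. Without SKOV3/DDP replicate 2 it was 3.37 (adjusted p = 0.000411), and 3.26 (adjusted p = 0.000166) with the trend removed. In SKOV3 the levels were 14.4, 5.71 and 10.5 CPM untreated and 180.8, 70.4 and 50.8 CPM with PAE, with a log2 fold change of 3.30 ± 0.73 (9.84-fold, adjusted p = 0.000732). Its GC content of 44.5% is low, the 1337 genes near it had a median of 2.29, and with the trend removed MXD1 had 1.08 ± 0.67 (adjusted p = 0.201).

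The value of MXD1 between the untreated lines changed sign with the choice of libraries. It was 2.38 ± 0.83 (adjusted p = 0.0255) with all 6 and did not pass without SKOV3 replicate 2 (2.08), SKOV3 replicate 3 (2.39) or SKOV3/DDP replicate 2 (0.66), by limma-voom (1.70, adjusted p = 0.12) or with the replicate number as a block (1.56, adjusted p = 0.143). With the trend removed it was 0.29 ± 0.75 (adjusted p = 0.742), and lower in SKOV3/DDP by -1.28 (adjusted p = 0.00389) without SKOV3/DDP replicate 2. The difference of the PAE effect between the lines was -1.68 ± 0.94 (adjusted p = 0.136), or -2.09 (adjusted p = 0.0453) without SKOV3/DDP replicate 1. It passed with scaling by library size alone (-2.29, adjusted p = 0.0337) and with no filter on low counts (-1.69 ± 0.37, adjusted p = 2.65e-05). Here too the unfiltered fit changed mainly the standard error, so its p-value has the limit given above. With the trend removed it was 0.49 ± 0.92 (adjusted p = 0.716), or 2.17 (adjusted p = 0.00624) without SKOV3/DDP replicate 2. Under PAE the lines differed by 0.76 ± 0.66 (adjusted p = 0.35).

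FBXW7, whose loss stabilizes MYC and cyclin E in many cancers, had the lowest GC content of the 10 genes (42.6%), and its rise with PAE in SKOV3 was no larger than that of other genes of like composition. It had 3.10, 1.36 and 2.37 CPM in SKOV3 and 16.3, 13.1 and 13.2 CPM in SKOV3_PAE, without overlap. The log2 fold change was 2.63 ± 0.30 (6.21-fold, adjusted p = 1.21e-06), against a median of 2.72 over 1463 genes within 1 percentage point of its GC content. After removal of the trend it was -0.12 ± 0.25 (adjusted p = 0.736), and the levels, 10.4, 7.88 and 9.71 CPM against 9.55, 8.91 and 7.62 CPM, overlapped. In SKOV3/DDP the levels were 20.01, 31.7 and 20.8 CPM untreated and 37.7, 38.4 and 35.6 CPM with PAE. All treated libraries were higher than all untreated ones, but the log2 fold change of 0.63 ± 0.27 did not pass (1.54-fold, adjusted p = 0.0963) and neither did 0.51 ± 0.22 with the trend removed (adjusted p = 0.0948). The first passed by DESeq2 (0.64, adjusted p = 0.0412), by limma-voom (0.66, adjusted p = 0.0346) and with scaling by library size alone (0.81, adjusted p = 0.0281). Without SKOV3/DDP replicate 2 it was 0.87 (adjusted p = 0.0376), and 0.73 (adjusted p = 0.0244) with the trend removed.

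Between the lines FBXW7 was higher in SKOV3/DDP. With PAE in both, the log2 fold change was 1.40 ± 0.27 (2.63-fold, adjusted p = 0.000502), and 1.35 ± 0.22 (2.54-fold, adjusted p = 0.00015) with the trend removed. Untreated, it was 3.35 ± 0.36 (10.2-fold, adjusted p = 3.63e-05). This lay above the median of 2.54 of 1303 genes of like GC content, 71.7% of which were at or below FBXW7. With the trend removed it was 0.73 ± 0.27 (1.66-fold, adjusted p = 0.0392). The last value did not pass without SKOV3 replicate 1 (0.76), SKOV3 replicate 2 (0.57), SKOV3 replicate 3 (0.70) or SKOV3/DDP replicate 2 (0.59). The difference of the PAE effect was -2.01 ± 0.40 (adjusted p = 0.000413), and 0.62 ± 0.33 (adjusted p = 0.155) with the trend removed. MIR4453HG, transcribed from the opposite strand and overlapping the 5′ end of FBXW7, had 1, 100, 200 and 406 counts in SKOV3, SKOV3_PAE, SKOV3/DDP and SKOV3/DDP_PAE, against 79, 788, 1189 and 2235 for FBXW7. Since the strand of counting is not stated in the sources used here, reads from the shared stretch cannot be assigned to either gene with certainty.

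The study asks about FOXO3 at the promoter of FBXW7, and the counts sum all FBXW7 transcripts, so 2 of its 4 annotated starts, the one nearest the 5′ end of the gene and the one with the lowest GC content before it, are shown beside that of FOXO1, the member with the largest fold change between the untreated lines. The sequences are the 250 bases before each start, from RefSeq on GRCh38.p14, printed 5′ to 3′ on the minus strand on which both genes lie, at chr4:152536093-152536342 (70.4% GC), chr4:152382530-152382779 (34.4% GC) and chr13:40666642-40666891 (67.2% GC). The upstream FBXW7 window overlaps the start of MIR4453HG, which extends from 152536264 to 152539263 on the plus strand. Capitals would mark the FOXO core motif TGTTTAC, which reads GTAAACA on the other strand, or the E-box CACGTG, and neither these windows nor the others of the members off MYC's chromosome, 16 in all, hold one. Sites farther than 250 bases before a start lie outside these windows and were not searched. The paper reports FOXO3 motif sites in a longer FBXW7 promoter region, activation of a reporter by FOXO3, and FOXO3 binding to a site there by ChIP-qPCR. Windows this short and an exact motif do not bear on those sites.
FBXW7 upstream start: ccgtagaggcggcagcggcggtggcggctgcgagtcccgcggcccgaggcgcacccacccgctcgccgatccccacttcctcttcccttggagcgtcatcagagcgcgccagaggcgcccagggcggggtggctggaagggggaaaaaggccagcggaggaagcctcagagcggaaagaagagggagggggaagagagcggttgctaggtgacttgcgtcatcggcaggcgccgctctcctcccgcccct
FBXW7 internal start: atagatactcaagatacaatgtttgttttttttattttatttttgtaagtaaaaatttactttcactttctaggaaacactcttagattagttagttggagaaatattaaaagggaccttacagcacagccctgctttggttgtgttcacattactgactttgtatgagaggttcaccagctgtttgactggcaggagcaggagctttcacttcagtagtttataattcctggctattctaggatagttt
FOXO1 start: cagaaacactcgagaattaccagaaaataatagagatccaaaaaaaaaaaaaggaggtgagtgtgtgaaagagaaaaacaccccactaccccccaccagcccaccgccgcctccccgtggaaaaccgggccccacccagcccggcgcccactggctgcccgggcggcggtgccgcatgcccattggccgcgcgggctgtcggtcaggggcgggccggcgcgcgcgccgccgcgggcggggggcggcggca
Of 35116 windows of this length, 2.98% held the FOXO core motif and 6.34% the E-box.

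Counted by comparison and without the allowance for GC content, the calls among the 10 genes were close to what the whole table gave where untreated SKOV3 was compared. With the trend removed a smaller share of members than of all genes was lower in 2 of these comparisons, but 1 gene among 9 or 10 moves a share far. Between the untreated lines 4 of 9 tested members were higher in SKOV3/DDP (FOXO1, FOXO3, MXD1 and FBXW7) and 3 lower (FOXO4, FOXO6 and MYC), where 46.1% and 38.5% of all genes were called in these directions. With the trend removed 4 were higher (FOXO1, FOXO3, MYCL and FBXW7) and 1 lower (FOXO6), beside 35.6% and 32.1% of all genes. PAE in SKOV3 gave 4 of 10 higher (FOXO1, FOXO3, MXD1 and FBXW7) and 2 lower (FOXO4 and FOXO6), beside 42.6% and 32.7%. After its removal 3 were higher (FOXO1, FOXO3 and MYC) and 1 lower (MAX), beside 26.2% and 20.8%. These comparisons share the untreated SKOV3 libraries. PAE in SKOV3/DDP gave 2 higher (FOXO3 and MAX) and 1 lower (MYCN), beside 11.8% and 14.7% of all genes, and the counts were the same with the trend removed, beside 15.4% and 16.5%. MYCN had passed the filter on low counts mostly through the untreated SKOV3/DDP libraries. Between the lines with PAE 4 were higher in SKOV3/DDP (FOXO1, MYCL, MAX and FBXW7) and 1 lower (MYC), beside 27.5% and 27.1%, again with the same counts after removal of the trend, beside 30.3% and 29.0%. The PAE effect differed between the lines for 7 of 10 (FOXO1, FOXO3, FOXO4, FOXO6, MYCN, MAX and FBXW7), where 62.9% of all genes were called, and for 4 of 10 with the trend removed (FOXO1, MYC, MYCN and MAX), beside 40.1%.

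**Figure D2:**
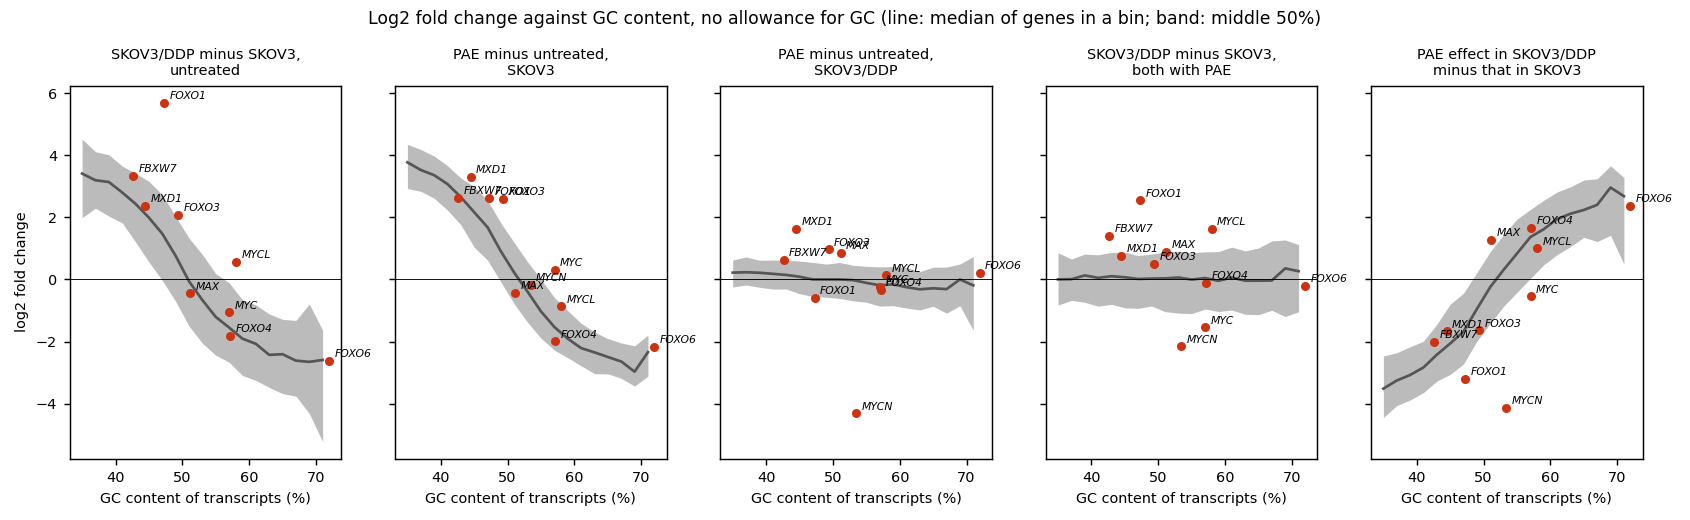
Log2 fold change without allowance for GC content (vertical axis) against the GC content of a gene's transcripts in percent (horizontal axis); the line is the median and the band the middle 50% of all genes in bins of GC content, and the labelled points are the 10 genes. FBXW7 and FOXO4 lie on or near the band in the first 2 panels, FOXO1 lies above it in all but the third and last, and the line is nearly flat for PAE in SKOV3/DDP and for the lines with PAE.

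Per kilobase of gene length, MXD1, MAX and MYC led the 10 genes in SKOV3/DDP_PAE, with mean levels of 30.6 ± 0.66, 23.5 ± 1.66 and 5.39 ± 0.98 CPM per kilobase (SD, n = 3), while MYCN had 0.0251 ± 0.0435. MYC and the next gene, FBXW7 (4.84 ± 0.19), differed by less than the spread of MYC. In SKOV3 the order began with MAX (17.0 ± 2.58), MYC (12.7 ± 3.00) and FOXO4 (11.8 ± 1.07) and ended with FOXO1 (0.115 ± 0.078). MYCN (0.127 ± 0.059) and FOXO1 differed there by less than their spread, as did MYC and FOXO4. Among the FOXO factors FOXO1 was lowest per kilobase in SKOV3 and highest in SKOV3/DDP (6.18 ± 1.36), and these levels carry the trend described above.

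Across the 12 libraries, with the trend removed, the protein-coding genes most like FOXO3 were KLHL11 (Pearson r of 0.973), IRS2 (0.971) and RIPK2 (0.970), of 9363 compared. IRS2, an insulin receptor adaptor, is itself on the list of FOXO targets below, while KLHL11 and RIPK2 are not. Among those most like MYC were ZNFX1 (0.916) and TFAP2C (0.915), and those most like FBXW7 were SLC48A1 (0.961), HSPA12A (0.961) and ASF1A (0.960). These correlations describe 12 libraries that fall into 4 groups and were picked as the largest.

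The counts of the gene lists that follow stand beside these shares of all genes, higher and lower: 11.8% and 14.7% for PAE in SKOV3/DDP (15.4% and 16.5% with the trend removed), 27.5% and 27.1% for the lines with PAE (30.3% and 29.0%), 42.6% and 32.7% for PAE in SKOV3 (26.2% and 20.8%), and 46.1% and 38.5% for the untreated lines (35.6% and 32.1%).

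Among the regulators of FOXO proteins, NEK6, the kinase the study follows, was higher in the resistant line and fell with PAE in both lines. The paper chose NEK6 partly from genes that differed between SKOV3 and SKOV3/DDP in its own sequencing of these lines. The difference of NEK6 between the untreated lines is therefore not independent of that choice. NEK6 had means of 17.8 ± 0.94, 4.601 ± 1.35, 139.8 ± 16.8 and 39.99 ± 7.91 CPM (SD, n = 3) in SKOV3, SKOV3_PAE, SKOV3/DDP and SKOV3/DDP_PAE. It was higher in SKOV3/DDP by a log2 fold change of 2.91 ± 0.18 untreated (adjusted p = 2.08e-06) and 3.12 ± 0.26 with PAE (adjusted p = 1.11e-07). PAE lowered it in SKOV3 (-1.96 ± 0.25, adjusted p = 3.51e-06) and in SKOV3/DDP (-1.80 ± 0.24, adjusted p = 0.000179), and the test of the difference gave 0.15 ± 0.33 (adjusted p = 0.729). With the trend removed these 5 values were 3.23, 3.13, -1.73, -1.77 and -0.04, with adjusted p of 3.01e-06, 4.95e-08, 3.16e-05, 6.19e-05 and 0.961. Of 23 listed regulators 22 were tested. PAE in SKOV3/DDP raised 5 and lowered 1 (NEK6), with and without the allowance, beside 11.8% and 14.7% of all genes, and the total of 6 was 3 without SKOV3/DDP_PAE replicate 3. The median log2 fold change was 0.37, beside 0 for all genes. The deacetylase SIRT1 rose by 1.34 ± 0.28 (adjusted p = 0.0033). Between the lines with PAE 9 were higher and 4 lower in SKOV3/DDP (5 lower with the trend removed; median 0.30 beside 0.06 for all genes), among them SIRT2 (3.26 ± 0.83, adjusted p = 0.0037) and the FOXO kinase SGK1 (-4.01 ± 0.38, adjusted p = 4.37e-07). In SKOV3, PAE raised 16 and lowered 5 (median 2.32 beside 0.48), but 8 and 7 with the trend removed. In untreated SKOV3/DDP 16 were higher and 5 lower (median 1.58 beside 0.41), but 8 and 8 with the trend removed. AKT1, the main FOXO kinase, was lower with PAE in SKOV3 in both fits (-3.11 ± 0.27, adjusted p = 8.32e-08, and -1.21 ± 0.23, adjusted p = 0.000828).

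Known targets of FOXO factors, of which 29 of 34 were tested in the 12-library fit, moved in both directions. PAE in SKOV3/DDP, where FOXO3 rose, raised 8 and lowered 6 of them (9 and 7 with the trend removed), where 11.8% of all genes rose and 14.7% fell, with a median log2 fold change of 0.47 beside 0 for all genes. The cell cycle inhibitor CDKN2B (1.80 ± 0.27, adjusted p = 0.00038) and the repressor BCL6 (1.67 ± 0.36, adjusted p = 0.00422) rose, and the transcriptional regulators KLF2 (-2.02 ± 0.51, adjusted p = 0.0102) and CITED2 (-1.87 ± 0.30, adjusted p = 0.000649) fell. The 14 calls became 8 without SKOV3/DDP replicate 1 or SKOV3/DDP_PAE replicate 1 and 9 without SKOV3/DDP replicate 3. Between the lines with PAE 13 targets were higher and 11 lower in SKOV3/DDP (12 and 11 with the trend removed; median 0.60 beside 0.06). SESN3, a sestrin that restrains mTOR complex 1, was 1.14 ± 0.24 CPM in SKOV3_PAE and 86.7 ± 39.1 CPM in SKOV3/DDP_PAE (log2 fold change of 6.25 ± 0.39, adjusted p = 6.38e-09), and 0.289 ± 0.140 and 66.1 ± 16.5 CPM in the untreated lines (7.74 ± 0.38, adjusted p = 9.57e-07, and 4.71 ± 0.33 with the trend removed). TNFSF10, the death ligand TRAIL, had 1280 counts in SKOV3_PAE and 3 in SKOV3/DDP_PAE. BNIP3, a mitophagy receptor, was lower in SKOV3/DDP with PAE (-5.70 ± 0.42, adjusted p = 4.11e-08). In SKOV3, PAE raised 17 and lowered 4 of the 29 (13 and 4 with the trend removed; median 1.31 beside 0.48). CDKN1A, which encodes the cell cycle inhibitor p21, fell there (-3.30 ± 0.34, adjusted p = 3.72e-07, and -1.45 ± 0.31, adjusted p = 0.00184, with the trend removed). In the comparison of untreated lines 16 of 28 were higher and 7 lower in SKOV3/DDP (12 and 7 with the trend removed; median 1.3 beside 0.41).

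The other partners of the MAX network were represented by 15 genes, 14 of them tested. Under PAE 8 of them were lower and 1 higher in SKOV3/DDP, in both fits, with a median log2 fold change of -0.78 beside 0.06 for all genes. The higher one was MXD4, a repressor of the MXD family (2.27 ± 0.24, adjusted p = 1.96e-06), and MXI1, another of that family, was lower (-1.19 ± 0.27, adjusted p = 0.00169). MXD4 moved in opposite directions with PAE: it had 641.6 ± 28.5 CPM in SKOV3 and 24.3 ± 3.38 in SKOV3_PAE, but 72.8 ± 22.2 in SKOV3/DDP and 117.9 ± 18.1 in SKOV3/DDP_PAE. The difference of its PAE effect was 5.42 ± 0.35 (adjusted p = 1.26e-07), and 3.56 ± 0.30 (adjusted p = 2.47e-06) with the trend removed. In SKOV3/DDP, PAE raised 1 partner and lowered 3 (median 0.01 beside 0), among them MLX (-0.84 ± 0.18, adjusted p = 0.00439), the partner of the glucose-sensing MLXIP proteins. In SKOV3 it raised 5 and lowered 8 (4 and 4 with the trend removed; median -0.91 beside 0.48), and between the untreated lines 3 were higher and 8 lower (2 and 6; median -1.29 beside 0.41).

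Of 38 targets of MYC, mostly genes of ribosome assembly, growth and metabolism, 36 were tested. Between the lines with PAE, where MYC was lower in SKOV3/DDP, 14 were lower and 3 higher there (14 and 4 with the trend removed), where 27.1% of all genes were lower and 27.5% higher, with a median of -0.26 beside 0.06. The 17 calls became 11 without SKOV3/DDP_PAE replicate 2. E2F1, a driver of S phase, was lower by -3.22 ± 0.27 (adjusted p = 1.3e-07) and the ribosome biogenesis gene PPAN by -2.01 ± 0.33 (adjusted p = 0.000128), while RRP12, which serves ribosome export, was higher by 1.25 ± 0.21 (adjusted p = 0.000169). In SKOV3/DDP, where MYC did not pass, PAE raised 3 and lowered 3 (6 and 3 with the trend removed; median 0.13 beside 0), and the 6 calls became 3 without SKOV3/DDP replicate 1. The transferrin receptor gene TFRC rose (1.60 ± 0.37, adjusted p = 0.00635) and MYBBP1A fell (-1.09 ± 0.20, adjusted p = 0.00131). In SKOV3 it raised 16 and lowered 16 (median -0.27 beside 0.48), and with the trend removed, where MYC rose as well, 18 and 7. The nucleolar genes NOP58 (4.21 ± 0.37, and 2.16 ± 0.29 with the trend removed, adjusted p = 5.3e-05) and GNL3 (3.81 ± 0.22, and 1.98 ± 0.15, adjusted p = 6.58e-07) were among those that rose in both fits. Of the 36, 12 were higher and 17 lower in untreated SKOV3/DDP (median -0.56 beside 0.41), and 7 and 13 with the trend removed.

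The other parts of the FBXW7 ligase and the enzymes that act on MYC stability were all tested (21 of 21). In SKOV3/DDP, PAE raised 6 and lowered 3 (6 and 2 with the trend removed; median 0.36 beside 0). FBXO32, an F-box protein and FOXO target, rose by 1.49 ± 0.52 (adjusted p = 0.0451), and the mitotic kinase AURKA, known to stabilize MYC proteins, fell by 1.29 on the log2 scale (adjusted p = 0.00957). In the lines with PAE 5 were higher and 6 lower in SKOV3/DDP (7 and 6 with the trend removed; median -0.04 beside 0.06), with the deubiquitinase OTUD6B higher (2.003 ± 0.29, adjusted p = 3.58e-05) and PLK1, a mitotic kinase that acts on FBXW7, lower (-2.52 ± 0.33, adjusted p = 1.3e-05). In SKOV3 it raised 13 and lowered 4 (median 1.52 beside 0.48), and 2 and 5 with the trend removed. In untreated SKOV3/DDP 12 were higher and 5 lower (median 0.88 beside 0.41), and 4 and 9 with the trend removed. GSK3A, a close relative of the kinase that prepares MYC for FBXW7, was lower in SKOV3/DDP in both fits (-3.52 ± 0.17, and -1.76 ± 0.16, adjusted p = 2.26e-05).

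Other substrates of FBXW7 are degraded as proteins, which RNA does not show. In SKOV3/DDP, PAE raised 3 and lowered 2 of the 15 (4 and 2 with the trend removed; median 0.16 beside 0), with PPARGC1A, a coactivator of mitochondrial genes, higher (1.89 ± 0.46, adjusted p = 0.00864) and the topoisomerase TOP2A lower (-2.27 ± 0.36, adjusted p = 0.00056). With PAE in both lines 4 were higher and 2 lower in SKOV3/DDP (4 and 3 with the trend removed; median 0.06, as over all genes), with CCNE1, which encodes cyclin E1, lower (-1.18 ± 0.26, adjusted p = 0.00143). In SKOV3 it raised 8 and lowered 4 (4 and 0 with the trend removed; median 1.14 beside 0.48), and between the untreated lines 6 were higher and 3 lower in both fits (median 0.53 beside 0.41).

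Of the 9 enzymes of de novo purine synthesis, the pathway the study follows, 5 fell and 0 rose with PAE in SKOV3/DDP (7 and 0 with the trend removed), where 14.7% of all genes fell and 11.8% rose. They had a median log2 fold change of -0.78 beside 0 for all genes, while the RNA of MYC did not pass. PFAS fell by 1.28 on the log2 scale (-1.28 ± 0.25, adjusted p = 0.00226) and ATIC, which completes the purine ring, by 1.17 (-1.17 ± 0.23, adjusted p = 0.00277). Between the lines with PAE 7 were lower and 1 higher in SKOV3/DDP in both fits (median -1.21 beside 0.06), with PFAS (-2.18 ± 0.25, adjusted p = 4.34e-06) and GART (-1.59 ± 0.32, adjusted p = 0.000707) lower and PPAT, the first enzyme of the path, higher (0.90 ± 0.33, adjusted p = 0.03). In the untreated lines the direction turned with the allowance: 6 were higher and 2 lower without it (median 1.63), and 2 higher and 5 lower with it (median -0.55). In SKOV3, PAE raised 5 and lowered 2 (median 2.20 beside 0.48), and 1 and 2 with the trend removed.

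**Figure D3:**
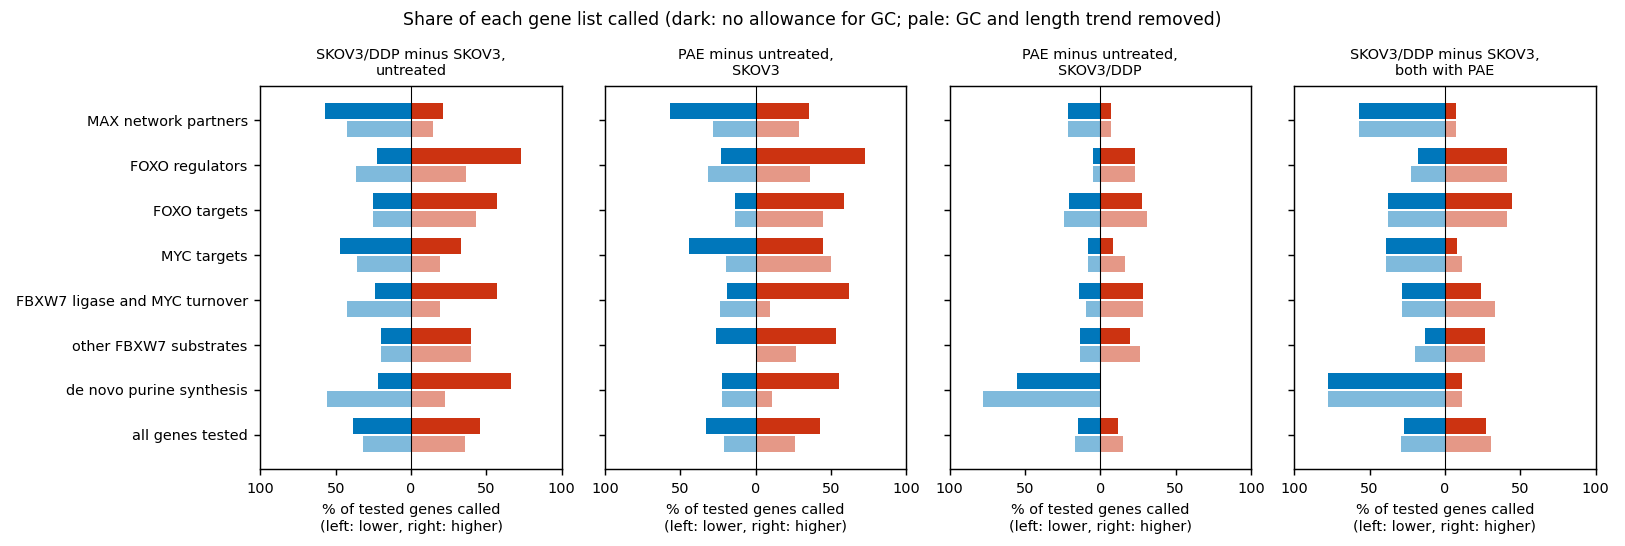
Share of the tested genes of each list called higher (bars to the right) or lower (bars to the left) in 4 comparisons, in percent of genes tested, without allowance for GC content (dark) and with the GC and length trend removed (pale); the lowest bars are all genes tested. The enzymes of purine synthesis lie mostly to the left for PAE in SKOV3/DDP and for the lines with PAE, and the FOXO targets on both sides in every panel.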

How the data were processed

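RNA was measured in 12 poly-A libraries (NEBNext Ultra). The authors deposited raw counts per gene, one file per library, with coordinates on GRCh38 and NCBI Gene IDs, without normalization. Per the labels, the submitters' processing notes name HISAT2 2.0.5, StringTie 1.3.3b, DESeq2 and edgeR; the counting program, annotation release and strand are not given in the sources used here. Loci without a gene name held 0.126% to 0.678% of counts and were left out.

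Counts were filtered with filterByExpr, TMM-normalized and tested with edgeR 4.0.16 (R 4.3.3), with Benjamini-Hochberg adjustment over all genes at 0.05. The untreated lines had a fit of their own with 6 libraries (15323 genes), where 9 of the 10 members passed the filter, and the other comparisons in a fit of all 12 (17133 genes), where all 10 passed. For the allowance for GC content, a spline with 5 degrees of freedom on GC content and one on length were fitted per library to genes whose mean log2 CPM reached 2 and used as offsets; GC content came from GENCODE 29 transcripts and was known for 94.0% and 91.5% of genes tested. Standard errors were taken from the fold change and its F statistic. The share of all genes called is printed beside the counts of members by comparison and beside the flagged differences. The closing section on processing gives the calls over all genes for some settings only. Depth bounds precision for low genes, and intervals cover counting error only.

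The members and gene lists were chosen with earlier results of these data known. All 10 members are named. List genes are named from, per list, comparison and sign, the 2 with the largest change among those called with the same sign in both fits and with 10 CPM or more, on average, in the higher group; NEK6 is named throughout, and for likeness the 3 protein-coding genes with the highest Pearson r and at least 10 CPM. Some genes that these rules name are not reported here. Alternatives were DESeq2 1.42.0, limma-voom (limma 3.58.1), library-size scaling, other filters, other libraries in the fit, the criteria of the study's methods (unadjusted p under 0.05 and absolute log2 fold change over 2), a replicate block, the GC trend alone, and each library left out; leaving out libraries in the fit with the trend removed was added after the data were seen. Same-numbered replicates did not deviate together (correlations of -0.171 to 0.117), so they were not paired. An exact permutation test of 3 against 3 libraries cannot go below 0.1, so none was used.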

Additional observations from a re-analysis of the deposited data

Results flagged for a closer look

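The effect of PAE differed between SKOV3/DDP and SKOV3, by the test of the difference itself, for 7 of the 10 genes. Of all genes tested, 62.9% were called for this difference, so the members did not stand out by their number. Relative to SKOV3, the log2 effect in SKOV3/DDP was lower for FOXO1 (-3.20, SE 0.58, adjusted p = 0.000193), FOXO3 (-1.63, SE 0.42, adjusted p = 0.00345), FBXW7 (-2.01, SE 0.40, adjusted p = 0.000413) and MYCN (-4.14, SE 1.36, adjusted p = 0.0149), and higher for FOXO4 (1.66, SE 0.45, adjusted p = 0.0046), FOXO6 (2.37, SE 0.81, adjusted p = 0.0185) and MAX (1.28, SE 0.29, adjusted p = 0.0014). All of these differences hold the untreated SKOV3 libraries with their GC trend. With counts scaled by library size alone FOXO4 (0.94, adjusted p = 0.074), FOXO6 (1.66, adjusted p = 0.0886) and MAX (0.59, adjusted p = 0.0871) did not pass. FOXO6 did not pass without SKOV3/DDP_PAE replicate 1 (1.57, adjusted p = 0.1), and MYCN did not without SKOV3_PAE replicate 1 (-3.28, adjusted p = 0.0695). MYCN had also passed the filter on low counts mostly through the untreated SKOV3/DDP libraries.

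With the GC and length trend removed the difference passed for 4 genes, FOXO1 (-1.60, SE 0.47, adjusted p = 0.0144), MYC (-1.77, SE 0.48, adjusted p = 0.00975), MYCN (-4.85, SE 1.38, adjusted p = 0.0127) and MAX (1.40, SE 0.24, adjusted p = 0.000489). Of all genes tested in that fit, 40.1% were called. MYCN did not pass in that fit without SKOV3_PAE replicate 1 (-4.01, adjusted p = 0.0537).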

How the results depend on the processing

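Limits: all untreated SKOV3 libraries carry the GC trend, FOXO6 lies at the edge of the GC range, MYCN and FOXO6 have few counts, and 3 libraries a group leave MXD1 to single libraries. The cause of the changes below was not tested. Removing the GC and length trend left 5, 4, 3, 5 and 4 members called (untreated lines, PAE in SKOV3, PAE in SKOV3/DDP, lines with PAE, difference) against 7, 6, 3, 5 and 7, and the genes of the 7 lists called went from 121 to 78 for PAE in SKOV3 and from 103 to 60 for the difference (56 for GC alone). Over all genes the calls fell as well, from 12895 of 17133 to 7361 of 15682 for PAE in SKOV3. For the difference they went from 10778 of 17133 to 6285 of 15682, and between the untreated lines from 12972 of 15323 to 9752 of 14409. For GC alone 4, 3 and 5 members were called between the untreated lines, for PAE in SKOV3 and for the difference. The criteria of the methods left 1 member for PAE in SKOV3/DDP, 1 for the lines with PAE and 4 for the difference, and 71, 4 and 28 list genes between the untreated lines, for PAE in SKOV3/DDP and for the lines with PAE, against 116, 48 and 85. For PAE in SKOV3/DDP limma-voom and scaling by library size alone each called 5 members. Over all 17133 genes they called 5184 and 4802, against 4526 in the main fit. A minimum of 10 counts in every library left 4 for the difference, with fewer genes tested.

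The replicate block gave 6, 6, 3, 5 and 7 members without the trend removal, so it moved no count by over 1.5 times. With the block and the trend removal together the counts were 3, 4, 3, 5 and 4 members, and 93, 76, 52, 88 and 60 list genes; FBXW7 was then -0.13 for PAE in SKOV3 and 0.63 for the difference, MYC 0.23 and MXD1 -0.50 between the untreated lines.

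Signs of called members turned in the trend removal: MYC between the untreated lines (0.25, and 0.51 for GC alone), FBXW7 for PAE in SKOV3 (-0.12) and for the difference (0.62, and 0.38 for GC alone), FOXO6 for GC alone (0.49 for PAE in SKOV3 and -0.13 for the difference), and MXD1 between the untreated lines with the trend removed and without SKOV3/DDP replicate 2 (-1.28; with other libraries left out up to 0.84). Of values called in neither fit, MYCL (0.68) and MYCN (0.59) for PAE in SKOV3 and MYCL (-0.36) and MXD1 (0.49) for the difference also turned. With single libraries left out, members called ranged from 7 to 8, 6 to 7, 2 to 5, 5 to 5 and 6 to 8 over the 5 comparisons, and with the trend removed from 4 to 6, 2 to 4, 3 to 5, 4 to 5 and 3 to 5; the 5 for PAE in SKOV3/DDP came without SKOV3/DDP replicate 2, and the 2 for PAE in SKOV3 without SKOV3 replicate 3 or SKOV3_PAE replicate 2. Of 40 group means of CPM, 13 moved by over 1 SD with library-size scaling and 18 with the trend removed. Of 1172 recomputed log2 fold changes of members, 1058 kept their side of the threshold, and those of them that were called also kept their direction. Values called in neither fit are among the 1058 even where their sign turned.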
